A study of Mus musculus with 6 samples.

Results

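Nuclear receptors are transcription factors switched by small ligands, and this account describes 34 genes for nuclear receptors of liver and for the coactivators and corepressors that work with them. The members are a fixed list of gene symbols, not picked by a threshold on measured values but drawn up with earlier results of these data known, and all 34 were found among the 15960 genes of the deposited expression table. Liver RNA was sequenced from 3 Cyp2e1-/- mice and 3 Cyp2e1+/+ mice (n = 3 libraries per genotype). Both genotypes were C57BL/6 animals aged 22 weeks that had received a high-fat diet for 14 weeks, so the diet was shared by the controls and no lean group was compared. The labels name no Cre, no tissue-restricted allele, no pooling and no sex. The question put to the data was whether Ppara, its partner receptors or receptors that compete with it differed at the transcript level when Cyp2e1 was lost.

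CYP2E1, a P450 enzyme of the hepatocyte endoplasmic reticulum, oxidizes ethanol and other small substrates. PPARα, encoded by Ppara, is a receptor for fatty acids that switches on fatty acid oxidation genes in liver. It binds DNA as a pair with a retinoid X receptor (RXR), on a direct repeat of the hexamer AGGTCA with a single base between the copies. RXR is also the partner of the receptors for retinoic acid, thyroid hormone, oxysterols, vitamin D and foreign compounds, so these receptors draw on the same RXR pool. Coactivators such as the p160 proteins and Mediator are recruited when ligand binds, and corepressors such as NCoR are held by receptors without an activating ligand.

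Expression was deposited as FPKM, fragments scaled to transcript length and to library size, a level per length that allows genes to be set beside each other. Fold changes are differences of mean log2(FPKM + 1), Cyp2e1-/- minus Cyp2e1+/+, a scale on which changes at low FPKM come out too small. A gene was called changed when its limma p, adjusted by Benjamini-Hochberg over all genes tested, was under 0.05. Testing was limited to the 9968 genes that reached 1 FPKM in 3 or more of the 6 libraries. Summed FPKM per library ran from 562590 to 624264, and between 9628 and 9963 genes reached 1 FPKM. From steps in the low values of short genes, depth was estimated at 10.8 M fragments for Cyp2e1-/- replicate 1 and 8.05 to 8.89 M for the other libraries. Cyp2e1 itself averaged 257 ± 12 FPKM in Cyp2e1-/- and 6480 ± 823 FPKM in Cyp2e1+/+ livers (SD, n = 3 each), as the labels say. Replicate 1 of both genotypes stood apart from the other 4 libraries. Fold changes without it are given for the members then called and for most of those that then separate.

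Promoters from RefSeq (GRCm38.p6), running from 250 bases before each start to the first 50 bases transcribed, were matched by gene identifier for 30 of the 34 members, with 46 promoters between them. Those of Ppara and Rxra are shown because these are the pair that the question turns on, those of Hnf4a and Nr1i2 because they were the members whose genotypes did not overlap, and that of Cyp8b1, a gene that rose, for comparison. Each is written 5′ to 3′ on the strand of its gene, and capitals mark AGGTCA or its complement TGACCT, or the HNF4α-type word CAAAGTCCA. Ppara lies at chr15:85735526-85735825 (plus strand). For Rxra the downstream of its annotated starts is shown, at chr2:27709042-27709341 (plus strand). For Hnf4a it is again the downstream start, at chr2:163546905-163547204 (plus strand). Nr1i2 lies at chr16:38294775-38295074 and Cyp8b1 at chr9:121916256-121916555 (both minus strand).
Ppara: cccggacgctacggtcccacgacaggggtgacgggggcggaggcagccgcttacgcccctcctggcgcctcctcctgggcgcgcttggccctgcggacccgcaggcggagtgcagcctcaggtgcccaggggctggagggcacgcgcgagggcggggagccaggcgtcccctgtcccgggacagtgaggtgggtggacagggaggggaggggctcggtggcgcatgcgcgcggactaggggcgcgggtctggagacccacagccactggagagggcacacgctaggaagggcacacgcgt
Rxra: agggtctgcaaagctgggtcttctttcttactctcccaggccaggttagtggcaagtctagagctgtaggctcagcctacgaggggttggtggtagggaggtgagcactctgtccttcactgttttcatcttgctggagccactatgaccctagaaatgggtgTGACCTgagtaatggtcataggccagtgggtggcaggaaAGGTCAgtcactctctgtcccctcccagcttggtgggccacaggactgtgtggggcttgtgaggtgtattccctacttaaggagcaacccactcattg
Hnf4a: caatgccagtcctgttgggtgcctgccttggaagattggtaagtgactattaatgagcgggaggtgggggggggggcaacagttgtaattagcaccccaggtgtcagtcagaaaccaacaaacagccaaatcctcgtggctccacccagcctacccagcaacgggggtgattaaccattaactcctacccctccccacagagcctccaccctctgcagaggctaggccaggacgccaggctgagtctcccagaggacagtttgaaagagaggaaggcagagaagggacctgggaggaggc
Nr1i2: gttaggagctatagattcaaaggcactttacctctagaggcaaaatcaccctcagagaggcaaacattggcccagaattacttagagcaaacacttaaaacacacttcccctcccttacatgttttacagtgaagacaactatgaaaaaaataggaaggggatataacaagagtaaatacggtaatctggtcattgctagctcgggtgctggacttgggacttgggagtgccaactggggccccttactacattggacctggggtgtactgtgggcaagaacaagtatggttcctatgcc
Cyp8b1: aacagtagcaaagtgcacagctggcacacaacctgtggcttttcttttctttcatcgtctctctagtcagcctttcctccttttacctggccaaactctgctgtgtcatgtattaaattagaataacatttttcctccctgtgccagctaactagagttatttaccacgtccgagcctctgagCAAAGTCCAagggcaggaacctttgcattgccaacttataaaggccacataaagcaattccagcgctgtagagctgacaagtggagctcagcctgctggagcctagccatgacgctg

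The window of Ppara was rich in G and C (74.7%) with 30 CpG dinucleotides and held none of the words searched. That of Nr1i2 had 45.3% G and C and 2 CpG, and none of the words either. The upstream promoter of Rxra, not shown, had 83.0% G and C, 55 CpG and none of the words. In the downstream Rxra window AGGTCA began at -48 and its complement at -87, counted from the start, and in the Cyp8b1 window CAAAGTCCA began at -67. Over all members, 7 of 46 promoters (15.2%) held AGGTCA on either strand, which is close to the 16.3% of all 32851 promoters in the table. They belonged to Nr5a2, Rxrg, Rxra, Pparg, Rara and Thrb. The direct repeat AGGTCANAGGTCA, in which each copy also matches the shorter word, was in 0 of 46 member promoters and in 0.0396% of all promoters. CAAAGTCCA was likewise in 0 of 46, against 0.475% of all. Member promoters had a median of 62.0% G and C and 16 CpG, against 52.7% and 7 for all promoters. A match is a description of letters in this window and not a bound site.

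The liver pattern of the receptors was plain in both genotypes. Nr1i3, which encodes the xenobiotic receptor CAR, had the highest mean (103 ± 10.5 FPKM in Cyp2e1-/- and 84.9 ± 10.8 FPKM in Cyp2e1+/+), followed by Hnf4a and Rxra. A mean of 10 FPKM or more was reached by 10 members, 12 lay between 3 and 10 FPKM, 8 between 1 and 3 FPKM, and 4 below 1 FPKM. The 10 highest were Nr1i3, Hnf4a, Rxra, Nr1h3, Ppara, Nr2f6, Nr1i2, Nr1h2, Nr3c1 and Esrra. Coregulators were lower: the highest was Ncor1, and Med1, Ncoa2, Ncoa1, Nrip1 and Ppargc1b followed it below 6 FPKM on average. The 10 hepatocyte markers summed to 47145 to 54568 FPKM in Cyp2e1-/- and 43231 to 50034 FPKM in Cyp2e1+/+ livers, which is what a liver label calls for.

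**Figure D1:**
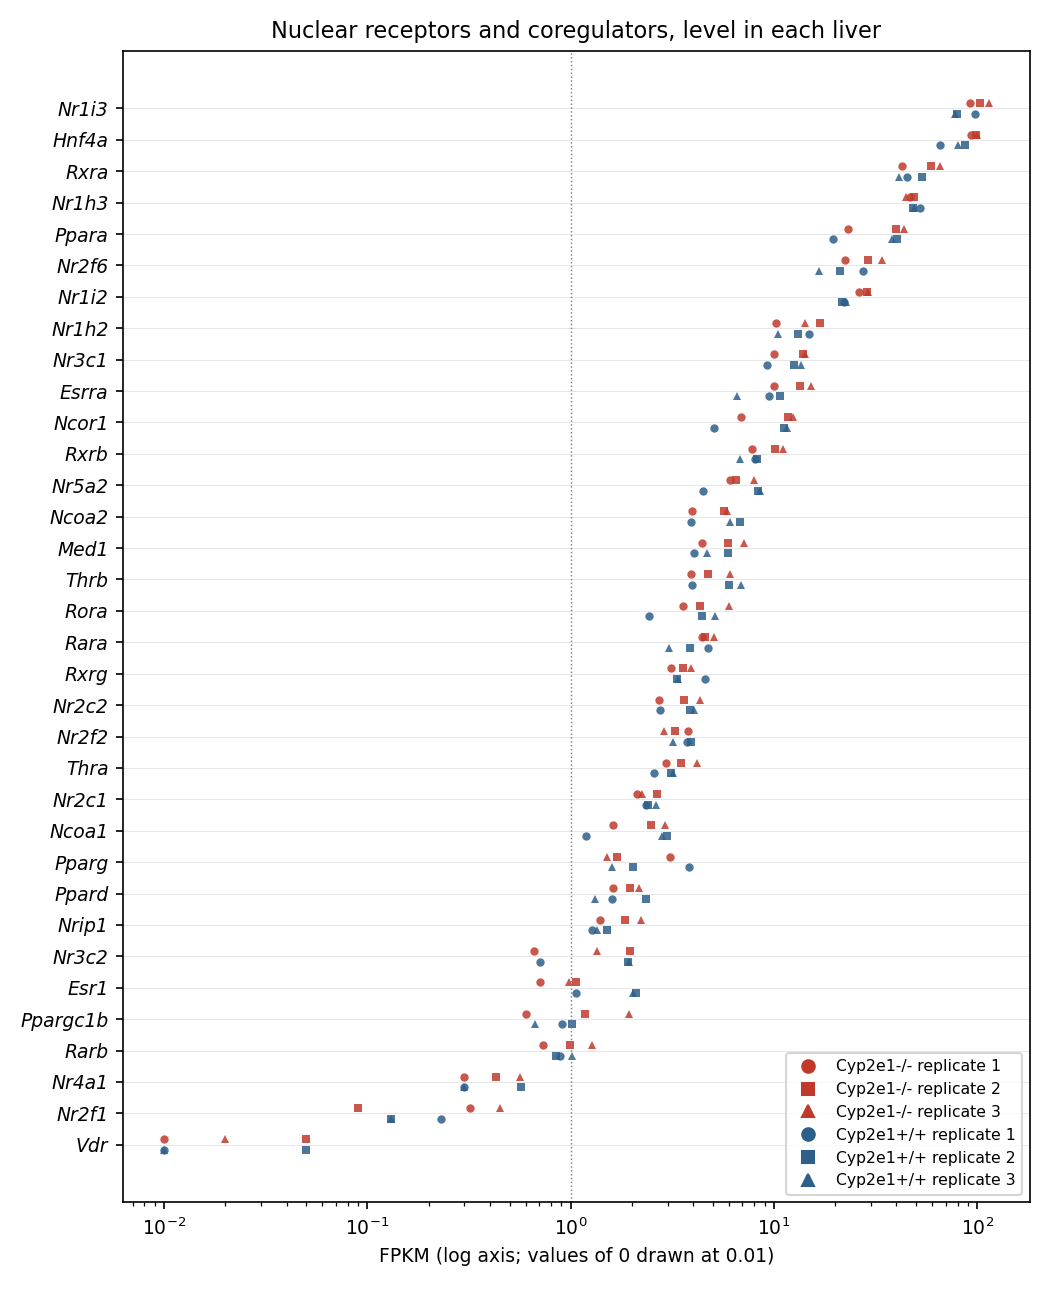
FPKM (log axis) of each of the 34 members in each liver, ordered by mean level, with Cyp2e1-/- in red above Cyp2e1+/+ in blue and a marker shape for each replicate number; the dotted line is 1 FPKM. Levels run from about 100 FPKM for Nr1i3 and Hnf4a to 0 to 0.05 FPKM for Vdr, and the genotypes overlap in all tested members except Hnf4a and Nr1i2.

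Loss of Cyp2e1 came with no called change in any receptor or coregulator of the set. Of the 30 members tested, 0 passed in limma at an adjusted p under 0.05, where 0.762% of all tested genes did (76 of 9968; 0.472% higher and 0.291% lower in Cyp2e1-/-), and the lowest adjusted p of a member was 0.357. At an unadjusted p under 0.05 there were 4 members (Hnf4a, Nr1i2 and Esrra higher in Cyp2e1-/-, Esr1 lower), against 9.93% of all tested genes (4.04% higher, 5.89% lower). The genotypes did not overlap in 2 members, Hnf4a and Nr1i2, both higher in Cyp2e1-/-, against 15.4% of all genes (5.32% higher, 10% lower). Fold changes of the members ran from -0.49 to 0.49 on the log2 scale. Their median was 0.11 and 19 of 30 were positive, beside a median of -0.03 and 44.2% positive over all genes. Between livers of equal replicate number, 7 members were higher in Cyp2e1-/- in all 3 pairs (13.2% of all genes) and 3 were lower in all 3 pairs (22.1%), beside 35.3% of all genes in either direction. With 3 livers per genotype, the 95% interval of a member's fold change reached a median of 0.42 on the log2 scale to either side of its estimate. That reach differed between members. Before adjustment the intervals of Nr1i2 (0.07 to 0.58), Hnf4a (0.03 to 0.62) and Esrra (0.04 to 0.93) lay above 0, and that of Esr1 (-0.92 to -0.06) lay below it.

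**Figure D2:**
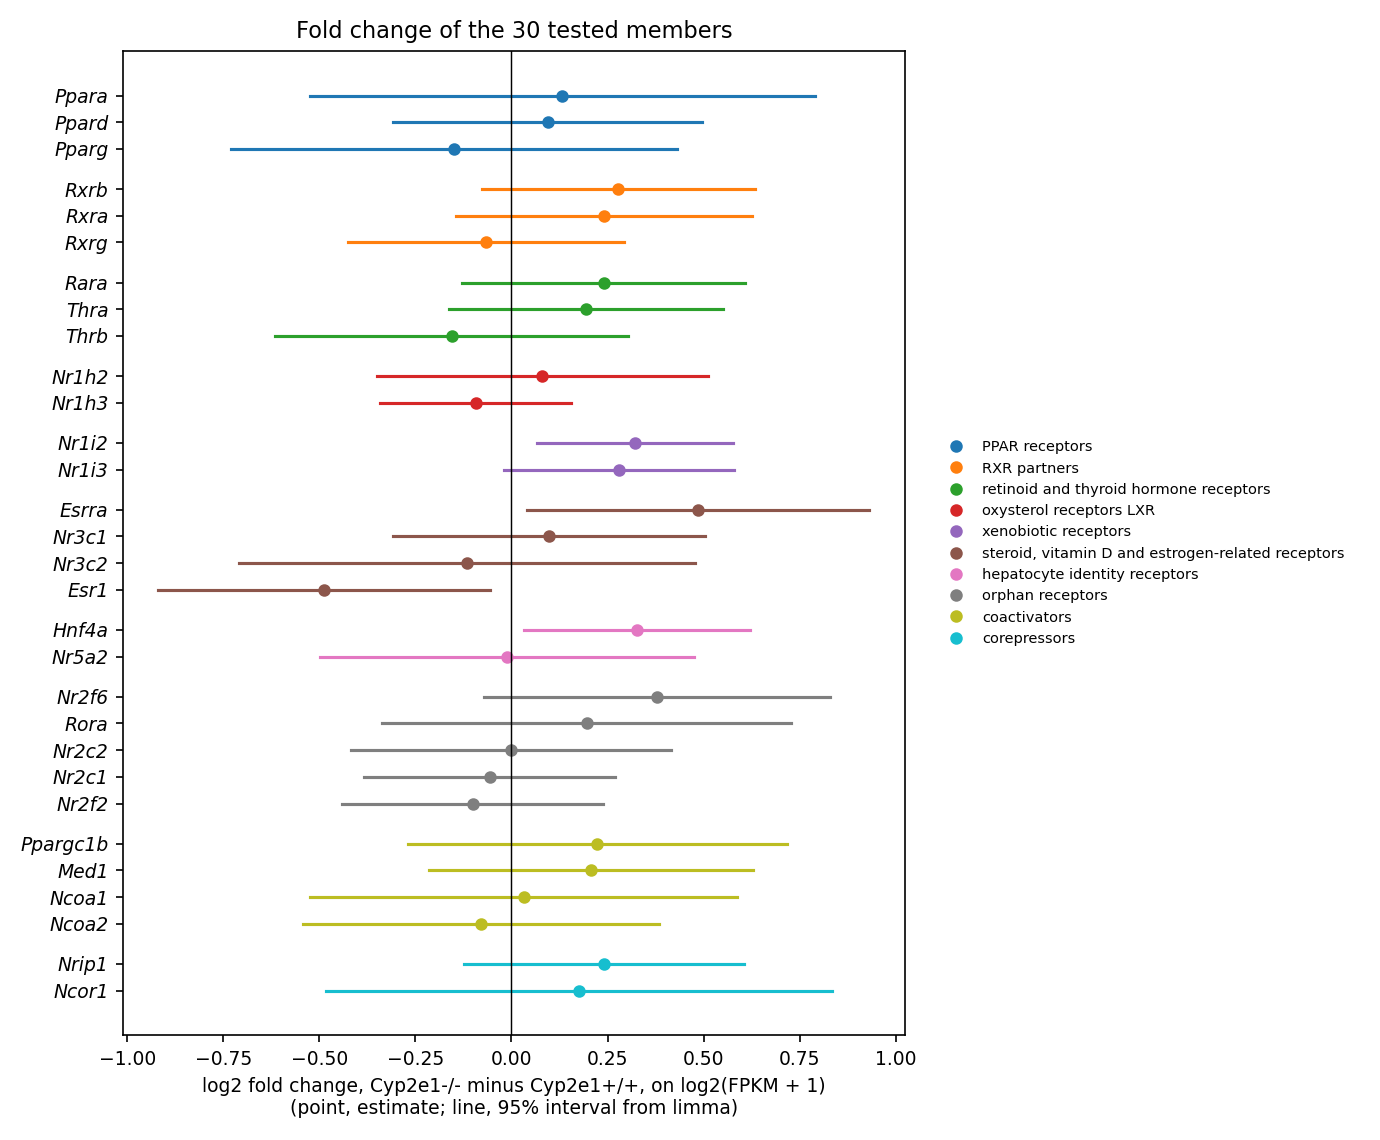
Log2 fold change on log2(FPKM + 1), Cyp2e1-/- minus Cyp2e1+/+, for the 30 tested members grouped by role, with the 95% interval from limma as a line. Estimates lie between -0.49 (Esr1) and 0.49 (Esrra), and no member passed the adjusted threshold.

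Ppara (gene 19013, chromosome 15, 85734910 to 85806851) had 23.03, 40.03 and 43.43 FPKM in the Cyp2e1-/- livers and 19.47, 40.36 and 38.28 FPKM in the Cyp2e1+/+ livers. The lowest value of each genotype was replicate 1, and the other 4 livers lay close together, so the genotypes overlapped throughout. Means were 35.5 ± 10.9 FPKM in Cyp2e1-/- and 32.7 ± 11.5 FPKM in Cyp2e1+/+ (SD, n = 3 each), a log2 fold change of 0.13 with a 95% interval of -0.52 to 0.79 (SE 0.29; limma, adjusted p = 0.948). With the replicate number as a block the interval narrowed to -0.13 to 0.40 (limma, adjusted p = 0.657), and without replicate 1 of both genotypes the fold change was 0.08, with an interval of -0.11 to 0.28. Its sign turned when single livers were left out: it was -0.03 without Cyp2e1-/- replicate 3 and -0.19 without Cyp2e1+/+ replicate 1. On the estimated depths, the Ppara values stood for about 465 to 1064 fragments per library.

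The other peroxisome proliferator-activated receptors were far below Ppara. Pparg, the adipose receptor that is induced in fatty liver, had 3.08, 1.69 and 1.51 FPKM in Cyp2e1-/- and 3.80, 2.03 and 1.59 FPKM in Cyp2e1+/+ livers. It was lower in Cyp2e1-/- in each pair of equal replicate number, but the spread within each genotype was larger than that difference, and replicate 1 was the highest of each genotype (log2 fold change -0.15, SE 0.26; limma, adjusted p = 0.929). Ppard, the widely expressed form, had 1.61, 1.96 and 2.17 FPKM in Cyp2e1-/- and 1.60, 2.35 and 1.31 FPKM in Cyp2e1+/+. Ppara made up 89.0 ± 5.11% of the summed FPKM of the family in Cyp2e1-/- and 87.2 ± 7.80% in Cyp2e1+/+ (two-sided exact permutation test, p = 0.7, adjusted 0.8 over 7 family shares, where 0.1 is the smallest possible with 3 against 3).

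Rxra (gene 20181, chromosome 2, 27676445 to 27763319), the main RXR of liver, had 42.80, 59.46 and 65.82 FPKM in Cyp2e1-/- and 45.34, 53.57 and 41.39 FPKM in Cyp2e1+/+ livers. Replicates 2 and 3 of Cyp2e1-/- lay above all 3 Cyp2e1+/+ livers, while its replicate 1 lay among them. The log2 fold change was 0.24 with an interval of -0.14 to 0.63 (limma, adjusted p = 0.714). Rxrb, another RXR, had 7.76, 10.09 and 11.02 FPKM in Cyp2e1-/- and 8.11, 8.26 and 6.77 FPKM in Cyp2e1+/+, with the same arrangement (log2 fold change 0.28; limma, adjusted p = 0.628). Rxrg was lower, at 3.13 to 3.89 FPKM in Cyp2e1-/- and 3.32 to 4.58 FPKM in Cyp2e1+/+. Rxra held 80.9 ± 0.997% of the summed RXR FPKM in Cyp2e1-/- and 80.2 ± 2.05% in Cyp2e1+/+ (exact permutation p = 0.7, adjusted 0.8). Summed FPKM of member receptors that pair with RXR, per summed RXR FPKM, was 3.59 ± 0.375 in Cyp2e1-/- and 3.81 ± 0.395 in Cyp2e1+/+ (exact permutation p = 0.6, adjusted 0.8).

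Among receptors that share RXR, the LXR genes gave no called difference. Nr1h3 (LXRα, the oxysterol receptor that drives cholesterol export and fatty acid synthesis) had 46.52, 48.95 and 44.58 FPKM in Cyp2e1-/- and 52.23, 48.52 and 48.87 FPKM in Cyp2e1+/+ livers, with overlapping ranges and the narrow log2 interval of -0.34 to 0.15. Nr1h2 (LXRβ) had 10.18, 16.80 and 14.18 FPKM in Cyp2e1-/- and 14.90, 13.06 and 10.44 FPKM in Cyp2e1+/+. LXRα is also made by macrophages, whose 12 markers summed to 145 to 249.42 FPKM in Cyp2e1-/- and 249.51 to 271 FPKM in Cyp2e1+/+. Of these markers 1, Lyz2, was called lower (log2 fold change -0.86; limma, adjusted p = 0.038), and 4 did not overlap. That call was lost with the replicate block (0.082) and without any 1 library other than Cyp2e1-/- replicate 1 (0.059 to 0.173). Without replicate 1 of both genotypes 9 of the 12 were called lower, in a fit that called 11.9% of all tested genes. None of the 12 was at 0 in any library, and their part in the level of Nr1h3 was not tested. In whole liver, fewer cells of a type and less RNA per cell cannot be told apart.

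The retinoic acid and thyroid hormone receptors were modest in level. Rara had 4.45, 4.60 and 5.07 FPKM in Cyp2e1-/- and 4.74, 3.86 and 3.03 FPKM in Cyp2e1+/+, so its genotypes overlapped through Cyp2e1+/+ replicate 1. Thrb, the main thyroid hormone receptor of hepatocytes, had 3.92, 4.76 and 6.05 FPKM in Cyp2e1-/- and 3.97, 6.04 and 6.90 FPKM in Cyp2e1+/+, and Thra 2.96, 3.47 and 4.19 FPKM in Cyp2e1-/- and 2.58, 3.10 and 3.18 FPKM in Cyp2e1+/+. Neither differed beyond its spread, but within each pair of equal number Thrb was lower and Thra higher in Cyp2e1-/-. Thrb made up 57.0%, 57.8% and 59.1% of the 2 genes' summed FPKM in Cyp2e1-/- and 60.6%, 66.1% and 68.5% in Cyp2e1+/+, which did not overlap. The exact permutation p was 0.1, the smallest that 3 against 3 allows, and 0.7 after adjustment over the 7 family shares compared. For the shares of Pparg among PPAR genes, Nr1h3 among LXR genes and Nr1i3 beside Nr1i2, the exact permutation p was 0.6, 0.4 and 0.8. Thra shares 263 exonic bases with Nr1d1 on the other strand, and the sources used here do not state if strand was used in counting.

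The xenobiotic receptors had higher means in Cyp2e1-/- livers, short of the threshold. Nr1i2 (gene 18171, chromosome 16, 38248349 to 38294849) encodes PXR, which induces drug-metabolizing P450s. It had 26.23, 28.59 and 28.95 FPKM in Cyp2e1-/- and 21.99, 21.69 and 22.69 FPKM in Cyp2e1+/+ livers. Every Cyp2e1-/- liver lay above every Cyp2e1+/+ liver, and replicate 1 did not stand apart in Cyp2e1+/+. The means were 27.9 ± 1.48 FPKM in Cyp2e1-/- and 22.1 ± 0.513 FPKM in Cyp2e1+/+, which is 0.32 on the log2 scale (SE 0.11; limma, adjusted p = 0.357). Nr1i3 had 92.65, 103.00 and 113.69 FPKM in Cyp2e1-/- and 97.35, 79.22 and 78.17 FPKM in Cyp2e1+/+, where replicate 1 was the liver that overlapped (log2 fold change 0.28, SE 0.13; limma, adjusted p = 0.544). Without replicate 1 of both genotypes, where 11.9% of all tested genes passed the threshold, both did so too, Nr1i2 at 0.36 and Nr1i3 at 0.45 (limma, adjusted p = 0.034 and 0.0067). Exons of Nr1i3 and Tomm40l share 3304 bases on opposite strands over all isoforms, and Tomm40l had 33.4 to 41.9 FPKM in Cyp2e1-/- and 32.5 to 39.4 FPKM in Cyp2e1+/+. Reads in the shared part cannot be assigned if strand was not used.

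Hnf4a (gene 15378, chromosome 2, 163506811 to 163572907) encodes the receptor that maintains hepatocyte identity and binds DNA as a homodimer, without RXR. It had 93.45, 98.18 and 100.02 FPKM in Cyp2e1-/- and 65.59, 87.42 and 80.40 FPKM in Cyp2e1+/+ livers. All Cyp2e1-/- values lay above all Cyp2e1+/+ values, with the widest gap in replicate 1. Means were 97.2 ± 3.39 FPKM in Cyp2e1-/- and 77.8 ± 11.1 FPKM in Cyp2e1+/+, a log2 fold change of 0.33 that did not pass (SE 0.13; limma, adjusted p = 0.436). It was 0.24 without replicate 1 of both genotypes (limma, adjusted p = 0.073). Nr5a2, which encodes LRH-1, a regulator of bile acid genes, had 6.10, 6.51 and 7.97 FPKM in Cyp2e1-/- and 4.49, 8.39 and 8.50 FPKM in Cyp2e1+/+, with the Cyp2e1-/- livers inside the Cyp2e1+/+ range.

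**Figure D3:**
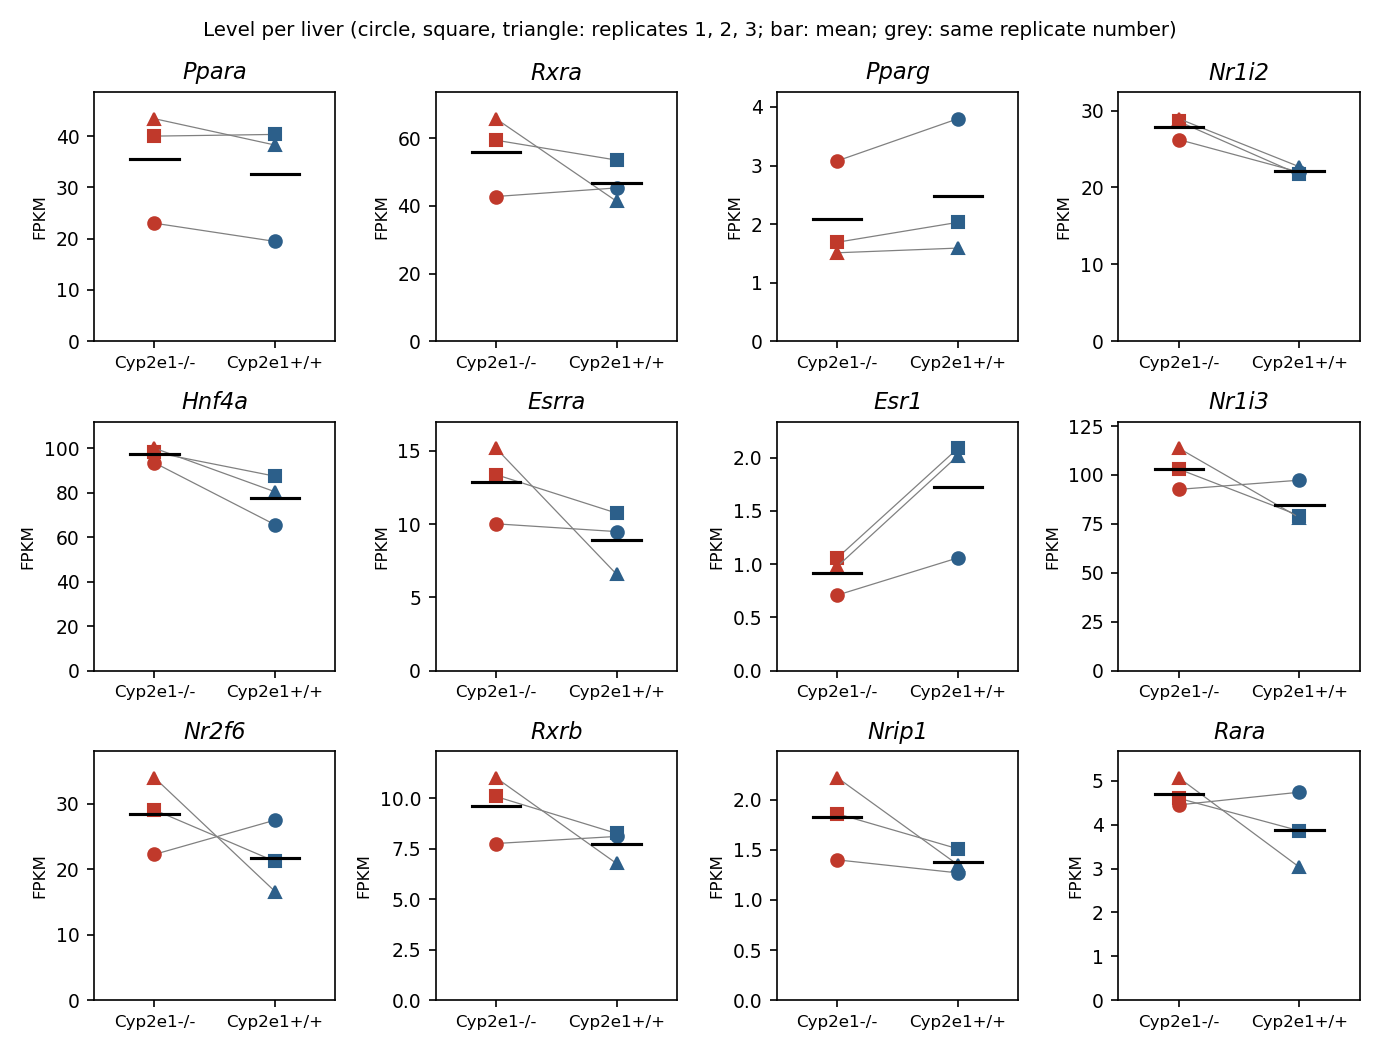
FPKM per liver of 12 members, the 10 chosen by the naming rule plus Pparg and Rara, with Cyp2e1-/- on the left, Cyp2e1+/+ on the right, a bar at each mean and grey lines between equal replicate numbers. Replicate 1 (circles) is the lowest point of both genotypes for Ppara, at 23.03 FPKM in Cyp2e1-/- and 19.47 FPKM in Cyp2e1+/+, and the highest for Pparg, at 3.08 FPKM in Cyp2e1-/- and 3.80 FPKM in Cyp2e1+/+.

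Of the steroid and estrogen-related receptors, 2 had wide differences that did not pass. Esrra (gene 26379, chromosome 19, 6910977 to 6922048) encodes ERRα, an orphan receptor for mitochondrial genes that works with PGC-1 coactivators. It had 10.02, 13.38 and 15.18 FPKM in Cyp2e1-/- and 9.49, 10.75 and 6.58 FPKM in Cyp2e1+/+ livers. Only Cyp2e1-/- replicate 1 lay within the Cyp2e1+/+ range (log2 fold change 0.49, SE 0.20; limma, adjusted p = 0.448). Esr1 (gene 13982, chromosome 10, 4611989 to 5005633), the estrogen receptor of hepatocytes, had 0.71, 1.06 and 0.98 FPKM in Cyp2e1-/- and 1.06, 2.09 and 2.02 FPKM in Cyp2e1+/+. The genotypes met at 1.06 FPKM and were otherwise apart, and the difference was -0.49 on the log2 scale (SE 0.19; limma, adjusted p = 0.426). Esr1 passed the filter on low values through 1 Cyp2e1-/- and 3 Cyp2e1+/+ livers, and its values stood for about 21.9 to 52.9 fragments per library. Nr3c1, the glucocorticoid receptor, had 9.98, 13.86 and 14.19 FPKM in Cyp2e1-/- and 9.24, 12.57 and 13.59 FPKM in Cyp2e1+/+, nearly equal within each pair. Nr3c2, which binds mineralocorticoids, had 0.66, 1.96 and 1.34 FPKM in Cyp2e1-/- and 0.71, 1.92 and 1.93 FPKM in Cyp2e1+/+.

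Orphan receptors include COUP-TF family members and testicular receptors that can occupy the same direct repeats as PPARα and RXR. Nr2f6 (gene 13864, chromosome 8, 71374118 to 71381967), of the COUP-TF family, had 22.24, 29.02 and 33.94 FPKM in Cyp2e1-/- and 27.47, 21.16 and 16.57 FPKM in Cyp2e1+/+ livers. Replicate 1 ran against the others, with Cyp2e1-/- below Cyp2e1+/+ there and above it in replicates 2 and 3 (log2 fold change 0.38, SE 0.20; limma, adjusted p = 0.589). Without replicate 1 of both genotypes, where 11.9% of all tested genes passed, the fold change was 0.71 (limma, adjusted p = 0.0104). Its exons share 1622 bases with Ocel1 on the other strand, and Ocel1 had 5.32, 7.49 and 8.75 FPKM in Cyp2e1-/- and 9.45, 5.40 and 4.49 FPKM in Cyp2e1+/+, also with replicate 1 reversed. Reads of the 2 genes cannot be told apart if strand was not used. Nr2f2 (COUP-TFII, mostly of vessel and stromal cells) had 2.87 to 3.79 FPKM in Cyp2e1-/- and 3.20 to 3.90 FPKM in Cyp2e1+/+. The 12 sinusoidal endothelial markers summed to 105 to 148 FPKM in Cyp2e1-/- and 122 to 151 FPKM in Cyp2e1+/+. The 12 stellate cell markers summed to 89.0 to 93.1 FPKM in Cyp2e1-/- and 98.2 to 111 FPKM in Cyp2e1+/+. Most of that sum was Dcn, at 61.80 to 63.79 FPKM in Cyp2e1-/- and 67.17 to 83.66 FPKM in Cyp2e1+/+. Of 10 stellate markers tested, 0 were called and 4 had positive fold changes, with a median of -0.04. The part of either cell type in Nr2f2 was not tested. Nr2c1 and Nr2c2, the testicular receptors, lay between 2.11 and 4.33 FPKM in Cyp2e1-/- and between 2.36 and 4.02 FPKM in Cyp2e1+/+, and Rora, a receptor of the clock, between 3.58 and 6.01 FPKM in Cyp2e1-/- and between 2.43 and 5.13 FPKM in Cyp2e1+/+. Nr2c2 also shares 4590 exonic bases with Mrps25 on the other strand, and reads there cannot be assigned if strand was not used.

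Coactivators gave no called difference. Med1, the Mediator subunit that contacts PPARα, had 4.45, 5.93 and 7.11 FPKM in Cyp2e1-/- and 4.02, 5.95 and 4.70 FPKM in Cyp2e1+/+ livers, overlapping. The p160 genes Ncoa1 and Ncoa2 had 1.62 to 2.90 and 3.96 to 5.86 FPKM in Cyp2e1-/-, and 1.19 to 2.97 and 3.89 to 6.82 FPKM in Cyp2e1+/+. Ppargc1b (PGC-1β, a partner of ERRα) had 0.60, 1.17 and 1.94 FPKM in Cyp2e1-/- and 0.91, 1.01 and 0.67 FPKM in Cyp2e1+/+, where replicates 2 and 3 of Cyp2e1-/- lay above all Cyp2e1+/+ livers and replicate 1 below them. Among corepressors, Ncor1 had 6.86, 11.74 and 12.43 FPKM in Cyp2e1-/- and 5.08, 11.16 and 11.64 FPKM in Cyp2e1+/+, slightly higher in Cyp2e1-/- in every pair but separated mainly by replicate number. Nrip1, a ligand-dependent corepressor, had 1.40, 1.86 and 2.22 FPKM in Cyp2e1-/- and 1.27, 1.51 and 1.35 FPKM in Cyp2e1+/+, with only Cyp2e1-/- replicate 1 inside the Cyp2e1+/+ range (log2 fold change 0.24; limma, adjusted p = 0.691).

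Rarb, Nr4a1, Nr2f1 and Vdr did not reach the filter and were not tested. Rarb, a retinoic acid receptor, had 0.73 to 1.28 FPKM in Cyp2e1-/- and 0.85 to 1.02 FPKM in Cyp2e1+/+. It shares 1793 exonic bases with Top2b on the other strand, and reads there cannot be assigned if strand was not used. Nr4a1, an immediate-early orphan receptor, had 0.30 to 0.56 FPKM in Cyp2e1-/- and 0.30 to 0.57 FPKM in Cyp2e1+/+, and Nr2f1 (COUP-TFI) had 0.09 to 0.45 FPKM in Cyp2e1-/- and 0.13 to 0.23 FPKM in Cyp2e1+/+. Vdr, the vitamin D receptor, was listed at 0, 0.05 and 0.02 FPKM in Cyp2e1-/- and 0, 0.05 and 0 FPKM in Cyp2e1+/+, which on the estimated depths is at most 1.94 fragments per library, so no difference was detectable at this depth.

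For many members replicate 1 stood apart from the other libraries of its genotype. Of the 30 tested members, 16 had their lowest value of each genotype in replicate 1, against 31.6% of all tested genes. In Cyp2e1-/-, replicate 1 was below the mean of the other livers in 28 of 30 members (68.4% of genes), by a median of -0.39 on the log2(FPKM + 1) scale, against -0.14 for all genes. In Cyp2e1+/+ this held for 19 of 30 members (55.7% of genes), with a median of -0.10 against -0.05. The offset went with transcript length: of 4 equal length classes, the shortest (298 to 1731 bases) had a median offset of -0.05 in Cyp2e1-/- and 0.22 in Cyp2e1+/+, and the longest (4116 to 123179 bases) -0.25 in Cyp2e1-/- and -0.32 in Cyp2e1+/+. Ncor1, with a median transcript of 7243 bases, was offset by -0.73 in Cyp2e1-/- and -1.03 in Cyp2e1+/+. Ppara, at 2966 bases, was offset by -0.83 in Cyp2e1-/- and -0.98 in Cyp2e1+/+, beyond the medians of its length class (-0.14 in Cyp2e1-/- and -0.12 in Cyp2e1+/+), and Pparg moved the other way by 0.65 in Cyp2e1-/- and 0.78 in Cyp2e1+/+. The 10 most abundant genes took 37.7% of the summed FPKM in Cyp2e1-/- replicate 1 and 32.5% to 33.5% in the other libraries. Their part in the offset was not tested.

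**Figure D4:**
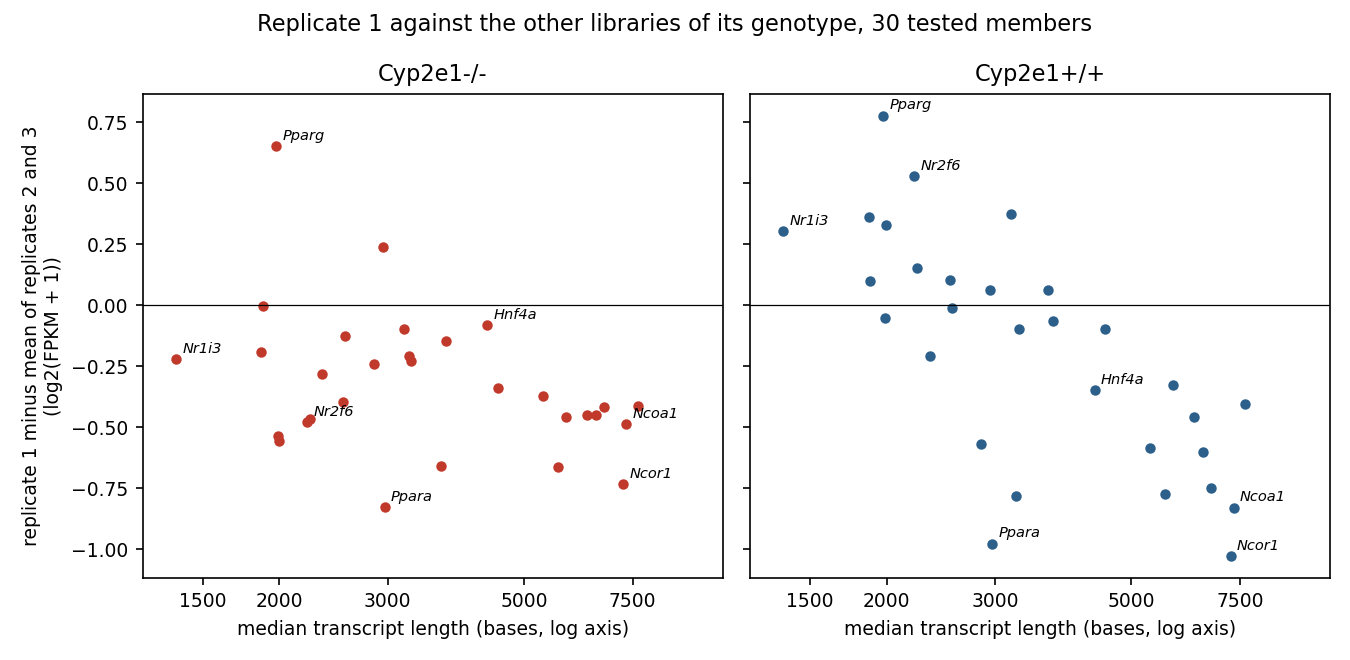
Offset of replicate 1 from the mean of replicates 2 and 3 on log2(FPKM + 1) against median transcript length (bases, log axis) for the 30 tested members, in Cyp2e1-/- (left) and Cyp2e1+/+ (right). Long transcripts such as Ncor1 and Ncoa1 lie below 0 in both, Ppara lies at -0.83 in Cyp2e1-/- and -0.98 in Cyp2e1+/+, and Pparg is the highest point of both panels.

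Among the genes whose pattern over the 6 livers was most like that of Ppara, by Pearson correlation of log2(FPKM + 1), were Wdfy3, Abcc2, Dyrk2 and Xpnpep3, at 0.996 to 0.997. Among members the closest were Ncor1 (0.991), Ncoa1 (0.978) and Nr3c1 (0.977), and the farthest was Pparg (-0.97). These are descriptions over 6 libraries that share the split of replicate 1 from the rest, and they carry no test.

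With replicate 1 of both genotypes left out, many more genes of the table passed, and some members passed as well. Of 9968 genes, 11.9% were called, and of the 30 members 4 were: Nr1i2, Nr1i3 and Nr2f6 higher and Esr1 lower in Cyp2e1-/-. The fold change of Esr1 was then -0.60 (limma, adjusted p = 0.044). The genotypes did not overlap in 18 of 30 members, beside 56.2% of all genes. Of these, 15 were higher in Cyp2e1-/- (27.7% of genes) and 3, Esr1, Nr5a2 and Ncoa2, were lower (28.5% of genes). That split by direction differed from the split in the table and was not tested. Besides Nr1i2, Nr1i3, Nr2f6 and Hnf4a, those higher were Rxra, Rxrb, Rxrg, Nr1h2, Rara, Thra, Nr3c1, Esrra, Ncor1, Nrip1 and Ppargc1b, none of them past the threshold. Rxra was at 0.40 with an interval of 0.13 to 0.68 (limma, adjusted p = 0.067), Rxrb at 0.44 (0.065) and Esrra at 0.69 (0.051). The log2 fold change of Nr1h2 was 0.37 without replicate 1 (limma, adjusted p = 0.120) and 0.08 with it. In the same order it was 0.40 and 0.24 for Rara, 0.46 and 0.22 for Ppargc1b, 0.12 and -0.07 for Rxrg, -0.20 and -0.01 for Nr5a2, and -0.13 and -0.08 for Ncoa2. With sample quality weights, which lower the weight of deviating libraries, 11.5% of genes and 5 members were called. These were the same 4 and Esrra (0.59, limma, adjusted p = 0.041). The weights were estimated from these same libraries, so this fit is not independent of the one without replicate 1. Neither share of called members stood far from that of all genes.

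Genes listed as targets of these receptors were then set beside the receptors, from 15 lists of related receptors, coregulators, ligand supply and target genes. Pparg, Nr1h3, Esrra and Rarb are also in target lists. The lists hold 255 genes, of which 215 were tested, 12 rose and 4 fell in limma. Of 30 PPARα targets, 4 rose (0.472% of all tested genes), 0 fell (0.291%) and 26 did not pass. Their median fold change was 0.22, and 25 were positive (44.2% of all genes). Cyp4a14, a fatty acid omega-hydroxylase, had 583.08, 596.03 and 608.74 FPKM in Cyp2e1-/- and 251.63, 155.65 and 157.73 FPKM in Cyp2e1+/+ livers (log2 fold change 1.69; limma, adjusted p = 0.0020), and its neighbours Cyp4a10 and Cyp4a31 rose by 1.31 and 1.43 on the log2 scale (limma, adjusted p = 0.00088 and 0.0093). The call of Cyp4a31 was lost without Cyp2e1-/- replicate 2 (limma, adjusted p = 0.064). These sequences are close relatives, among which reads may be shared. The peroxisomal thioesterase gene Acot3 rose by 0.95 (limma, adjusted p = 0.045), a call lost without any 1 library other than Cyp2e1+/+ replicate 1 (0.055 to 0.206). Fabp1, the fatty acid carrier, had 2467.65, 5420.84 and 5521.49 FPKM in Cyp2e1-/- and 4524.16, 3781.14 and 4122.42 FPKM in Cyp2e1+/+, so only replicate 1 kept the genotypes from separating. Without replicate 1 of both genotypes 16 of the 30 rose and 2 fell, in a fit that called 11.9% of all tested genes (690 higher and 493 lower). Ppara itself was at 0.13 with all livers and 0.08 without replicate 1. Of 10 tested PPARγ-linked steatosis genes, 0 passed (median 0.13, all libraries), and G0s2 and Plin5, both lipid droplet proteins, were the highest in level, with log2 fold changes of 0.02 and 0.81.

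Listed targets of PXR and CAR included 2 of 19 that rose, 0 that fell, 11 with positive fold changes and a median of 0.18. Cyp2b10, the classical CAR target, had 26.22, 20.67 and 18.51 FPKM in Cyp2e1-/- and 5.24, 9.03 and 8.45 FPKM in Cyp2e1+/+, wholly apart (log2 fold change 1.43; limma, adjusted p = 0.011, 0.060 with the replicate block and 0.064 without Cyp2e1-/- replicate 2). Gadd45b, a growth arrest gene, rose by 1.14 (limma, adjusted p = 0.037), a call lost without any 1 library other than Cyp2e1-/- replicate 1 (0.071 to 0.186). Glucocorticoid receptor targets had the highest list median, 0.51, with 17 of 18 fold changes positive (44.2% of all genes). In that list 3 rose (0.472% of all genes) and 0 fell (0.291%). The lists were drawn up with earlier results of these data known, so their ranking carries no test. The metallothionein gene Mt2, which binds metals, had 198.03, 173.15 and 140.78 FPKM in Cyp2e1-/- and 36.63, 18.73 and 21.63 FPKM in Cyp2e1+/+ (log2 fold change 2.73; limma, adjusted p = 0.00032), and its relative Mt1 rose by 1.64 (limma, adjusted p = 0.039). Fkbp5, a chaperone of the receptor, had 44.87, 38.30 and 41.06 FPKM in Cyp2e1-/- and 23.02, 26.33 and 23.00 FPKM in Cyp2e1+/+ (log2 fold change 0.76; limma, adjusted p = 0.026, and 0.071 with the replicate block). Nr3c1 stood at 0.10 beside these. Serpina6, the plasma carrier of corticosteroids, was the 1 of 22 ligand supply genes that fell (fold change -0.68; limma, adjusted p = 0.043, and 0.108 with the replicate block), and 0 rose. Without replicate 2 or 3 of either genotype the calls of Mt1, Fkbp5 and Serpina6 were each lost (limma, adjusted p = 0.088 to 0.166, 0.076 to 0.15 and 0.147 to 0.169).

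For HNF4α, 7 of 17 listed targets had positive fold changes, with a median of -0.04, while Hnf4a stood at 0.33. Of these targets 0 rose (0.472% of all genes) and 2 fell (0.291%). They were Pklr, a glycolytic kinase (-0.86; limma, adjusted p = 0.016), and the glucose transporter gene Slc2a2 (-0.68; limma, adjusted p = 0.046, and 0.051 with the replicate block). Of 14 LRH-1 and ROR targets, 3 rose and 0 fell, and 8 fold changes were positive (median 0.33). Cyp8b1, which makes cholic acid, had 343.08, 259.52 and 270.23 FPKM in Cyp2e1-/- and 184.42, 143.16 and 120.68 FPKM in Cyp2e1+/+ livers (log2 fold change 0.97; limma, adjusted p = 0.039). Its window held the HNF4α-type word, but the HNF4α list did not include it, so the counts of that list depend on how genes were listed. Insig2, a brake on sterol synthesis, and Elovl3, a fatty acid elongase, rose by 1.01 and 1.20 on the log2 scale (limma, adjusted p = 0.0026 and 0.0061). The calls of Slc2a2 and Cyp8b1 were lost without replicate 2 or 3 of either genotype (limma, adjusted p = 0.115 to 0.236 and 0.111 to 0.179). That of Pklr was lost without Cyp2e1-/- replicate 2 or Cyp2e1+/+ replicate 2 or 3 (0.071 to 0.102), and that of Elovl3 without Cyp2e1-/- replicate 2 (0.055). Nr5a2 stood at -0.01 and Rora at 0.20. Thrsp, a lipogenic gene induced by thyroid hormone, was the 1 of 14 thyroid targets that fell, to 389 ± 11.7 FPKM in Cyp2e1-/-, against 859 ± 53.2 FPKM in Cyp2e1+/+ (limma, adjusted p = 0.0014), and 0 rose (list median -0.04). With the replicate block Pck1, a gluconeogenic gene of the thyroid and glucocorticoid lists, and Igfbp1, of the glucocorticoid list, passed as well, both higher in Cyp2e1-/-.

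No gene passed in the remaining lists. These were 13 LXR targets (median -0.08), 5 RAR targets (-0.10), 16 ERRα and PGC-1 targets (0.10) and 3 vitamin D and estrogen receptor targets (0.39). With log2 fold changes in brackets, they were led in level by Apoe (0.13) and Rgs16 (-0.17), by Dhrs3 (-0.17) and Tgm2 (-0.38), by Atp5b (0.14) and Cox6a1 (0.06), and by Lifr (-0.34) and Socs2 (0.80). The 8 other nuclear receptors tested, headed by the bile acid receptor gene Nr1h4 (-0.04), had a median of -0.15. Medians were -0.01 for 21 other coregulators, with the acetyltransferase and deacetylase genes Kat2b (-0.10) and Hdac3 (-0.08) highest, and -0.05 for 29 other Mediator subunits, with Med21 (-0.58; limma, adjusted p = 0.118) and Med10 (-0.03) highest.

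**Figure D5:**
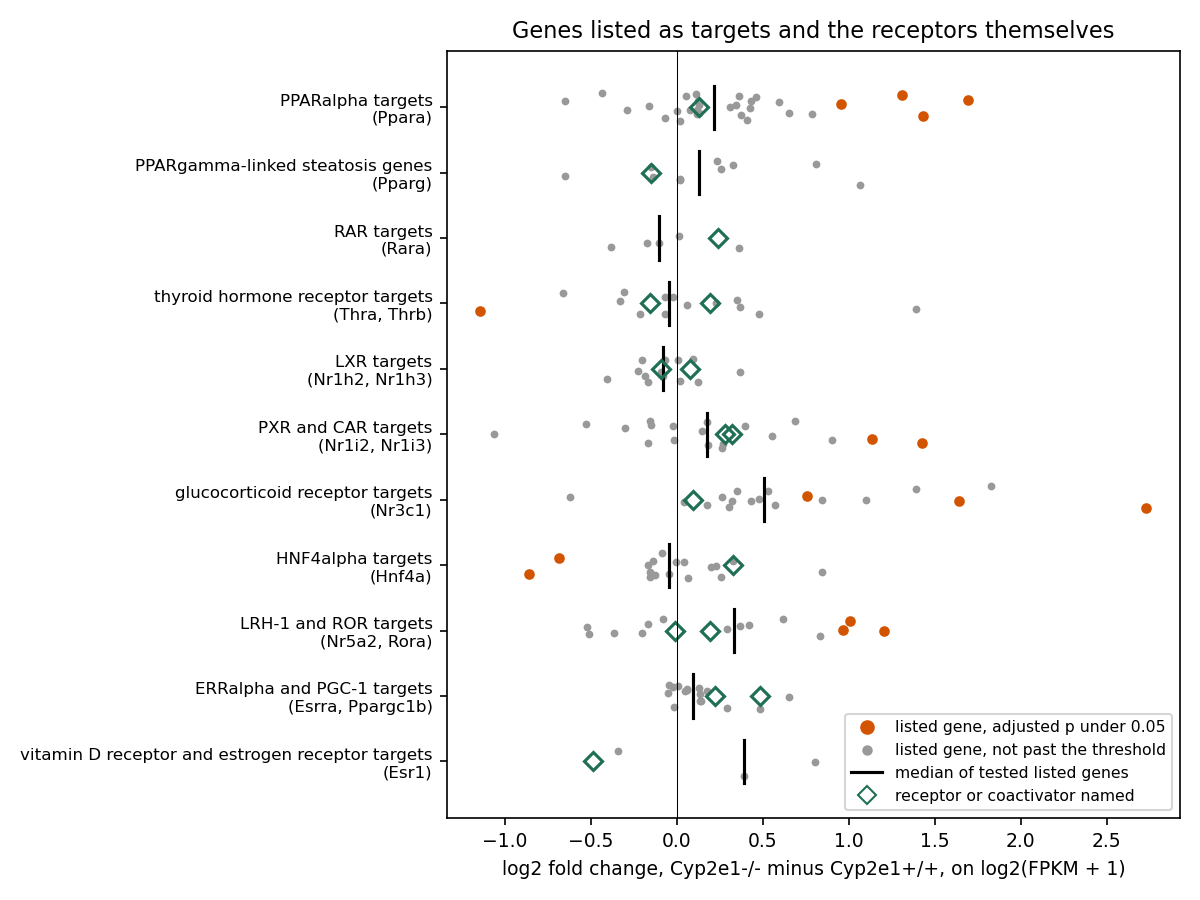
Log2 fold change on log2(FPKM + 1), Cyp2e1-/- minus Cyp2e1+/+, of the tested genes in 11 target lists (orange, adjusted p under 0.05; grey, not past the threshold; black bar, list median), with the receptors or coactivators of each list as open diamonds. The diamonds lie between -0.49 (Esr1) and 0.49 (Esrra), while called target genes reach from -1.14 (Thrsp) to 2.73 (Mt2).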

How the data were processed

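Liver RNA from 6 mice was sequenced after extraction with a Qiagen miRNeasy kit and Illumina TruSeq library preparation, per the labels' protocols. HISAT and the build mm10 are named in the submitters' processing notes. For the program and annotation behind the expression values, nothing is stated in the sources used here. The authors deposited FPKM for 15960 genes, to 2 decimals, per the file headers. Since FPKM is not a count, no count test was made and the plan made for FPKM was followed. Grouping was by the genotype label.

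Genotypes were compared with limma 3.58.1 in R 4.3.3 (linear fit, eBayes with trend) on log2(FPKM + 1). Genes had to reach 1 FPKM in 3 or more of 6 libraries, with Benjamini-Hochberg adjustment over 9968 genes. It was also run on simulated data, with noise drawn independently for each gene and library. The offset of replicate 1 was not simulated, so that run says nothing about calls that depend on it. Members without a call are described by level, range and count, and no gene set test was run. The members and all lists were chosen with earlier results of these data known. Members named with full statistics are Ppara, Rxra and the 8 with the smallest p. Named list genes are those called (up to 4), or otherwise the 2 highest in level, and for likeness to Ppara the 5 closest; some genes that these rules take are not reported here. Cyp7a1, Nr0b2, Cd36, Cpt1a, Cyp3a11, Fabp1 and Lyz2 were named after their values were seen. The labels do not say how the livers were taken, and p-values reflect only the variation among these 6.

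Depth is not stated. It was estimated from steps in low FPKM values of transcripts of 450 to 1200 bases. In each library 68.6% to 74.7% of 188 to 224 values were within 0.15 of a whole number of steps (30% if spread evenly), so the estimate is rough.

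Replicate numbers come from the titles. Deviations from the genotype means correlated at 0.30, 0.198 and 0.157 within replicates 1, 2 and 3, all above 0.1, so equal numbers were taken as pairs in an alternative fit with a replicate block. Cyp2e1-/- replicate 3 correlated more with Cyp2e1+/+ replicate 2 (0.212). Positions, transcript lengths and promoters are those of GRCm38, the assembly that mm10 names. Other pseudocounts, filters, scalings and models, and fits leaving out libraries, were also run. A correction of each library for transcript length (lowess, span 0.3) was added after seeing the data.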

Additional observations from a re-analysis of the deposited data

How the results depend on the processing

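No member was called in any fit that left out a single library, nor with the replicate block, which gave 0 members and 72 genes against 76 without it and changed no member's call. Leaving out 1 library at a time gave 29 to 211 called genes, 5 to 29 called list genes (16 with all libraries), 2 to 12 members whose genotypes did not overlap (2 with all libraries) and a member median of 0.020 to 0.27 (0.11 with all libraries). The counts of 211 genes and 12 members were without Cyp2e1-/- replicate 1, where 34.4% of all genes did not overlap either (15.4% with all libraries, 35.3% without Cyp2e1+/+ replicate 1 and 20.6% without replicate 3 of either genotype), and those of 29 genes and 5 list genes without Cyp2e1-/- replicate 2. Ppara reversed to -0.03 without Cyp2e1-/- replicate 3 and to -0.19 without Cyp2e1+/+ replicate 1, and ranged up to 0.41; the cause was not tested. Without replicate 1 of both genotypes there were 1183 called genes, 4 members, 75 list genes and 18 members without overlap, beside 56.2% of all genes without overlap. Sample quality weights gave 1151 genes, 5 members and 63 list genes.

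With no filter on low values, 32 genes and 6 list genes passed, with 15960 genes sharing the adjustment. Without the trend, 10 list genes passed. Members without overlap numbered 4 after rescaling to equal sums (TPM) and after rescaling without Mup and the 10 top genes (14.2% of all genes in each), 8 after division by the upper quartile (15.6%) and after quantile normalization (16.1%), and 7 after length correction (18.2%). These counts changed with the scaling and are not read as results about the members. Length correction with the replicate block called 122 genes. Division by the upper quartile moved the positive share of all genes to 54.4% from 44.2%, and the called genes to 53 higher and 23 lower from 47 and 29. The other 9 named members kept their sign in all 20 alternatives. Levels near or under 1 FPKM, such as Esr1, Nr4a1 and Vdr, were limited by depth.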

Other observations

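Some genes outside the set, chosen after their values were seen, are described here. Nr0b2, which encodes SHP, a receptor without a DNA-binding domain that represses LRH-1, had 1.59, 21.23 and 20.40 FPKM in Cyp2e1-/- and 4.59, 16.37 and 16.95 FPKM in Cyp2e1+/+ livers. Replicate 1 of each genotype was several-fold below the rest, and the genotypes overlapped (limma, adjusted p = 0.979). Cyp7a1, the rate-limiting enzyme of bile acid synthesis and a gene that SHP represses, had 96.21, 60.68 and 68.08 FPKM in Cyp2e1-/- and 58.37, 51.73 and 60.18 FPKM in Cyp2e1+/+. All Cyp2e1-/- values were higher there, by little where 60.68 stood against 60.18 FPKM, and with the widest gap in replicate 1 (log2 fold change 0.37; limma, adjusted p = 0.512). In Cyp2e1+/+, replicate 1 lay between the other livers for Cyp7a1, and a link to Nr0b2 was not tested.

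Cyp3a11, the main PXR-inducible P450 of mouse liver, had 288.82, 259.67 and 311.54 FPKM in Cyp2e1-/- and 211.29, 159.19 and 165.87 FPKM in Cyp2e1+/+, without overlap (log2 fold change 0.69; limma, adjusted p = 0.070). Among PPARα targets that did not pass, Cpt1a, which lets fatty acids into mitochondria, had 97.07, 121.59 and 121.29 FPKM in Cyp2e1-/- and 75.59, 95.06 and 84.76 FPKM in Cyp2e1+/+ (0.41; limma, adjusted p = 0.328). Cd36, a fatty acid transporter on hepatocytes and macrophages that both PPARα and PPARγ can induce, was lower in all Cyp2e1-/- livers, at 8.69, 7.16 and 4.02 FPKM in Cyp2e1-/- and 10.04, 10.13 and 11.42 FPKM in Cyp2e1+/+ (-0.65; limma, adjusted p = 0.328). The 12 macrophage markers summed to 145 to 249.42 FPKM in Cyp2e1-/- and 249.51 to 271 FPKM in Cyp2e1+/+, and their part in the value of Cd36 was not tested.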
